A study of Mus musculus with 14 samples.

Results

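The regions described here were open chromatin regions of wild-type mouse colon muscularis that lay away from gene starts and had no counterpart in the region list of Carmn knockout muscularis. There were 662 such regions, called members below, among 35003 regions listed for the wild-type library. The members were chosen by measured values. Each lay more than 1000 bp from the start-end interval of every gene in the wild-type feature list, each had at least 100 counts summed over all wild-type barcodes, and none shared a base with a region listed for the knockout library. Their counts and their absence from the knockout list are therefore given as a description, with no test.

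The muscularis, the layer of the gut wall that contracts, also holds nerves, glia and interstitial cells and is covered by mesothelium. It was taken from C57BL/6 mice with the genotype labels "Carmn iKO" (called KO) and "WT mTmG" (called WT). mTmG is a fluorescent reporter allele that reports Cre activity. Whether the KO mice also carried it, how Carmn was deleted, and the age and treatment of the mice were not stated in the labels. For each genotype 1 library of colon nuclei was made, and each library held RNA counts and region counts of the same barcodes. Bulk RNA-seq covered colon and jejunum, with 3 KO and 3 WT libraries in each. Nothing in the labels says that the bulk libraries came from separate animals, so p-values measure the spread between these libraries, which may be technical.

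Carmn makes a long non-coding RNA in smooth muscle cells and is the host locus of the microRNAs Mir143 and Mir145a. Open chromatin away from gene starts often holds enhancers, stretches of DNA where transcription factors bind and act on a gene that may lie far off, and many enhancers are open in only some cell types. Smooth muscle enhancers are known for CArG boxes, the sites of serum response factor, beside sites of MEF2 and TEAD factors.

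Carmn itself was checked first. In bulk colon it measured 461, 718 and 304 CPM (counts scaled to a fixed library total) in the libraries labelled KO and 171, 351 and 252 CPM in WT. In jejunum it measured 996, 817 and 909 CPM in the libraries labelled KO and 206, 326 and 240 CPM in WT. The bulk level thus went against the label, with the KO libraries above WT in jejunum without overlap, but the differences of 0.94 ± 0.34 in colon (log2, SE, edgeR adjusted p = 0.234) and 1.82 ± 0.34 in jejunum (edgeR adjusted p = 0.0646) did not pass the threshold of 0.05. Which part of the gene was deleted is not stated in the labels, so whether the counted exons lie in it is not known. Every bulk direction below is for libraries labelled KO. In the smooth muscle-like nuclei the direction was the other way, at 1632 CPM in WT (3832 UMIs, exact Poisson interval 1581 to 1685) and 629 CPM in KO (954 UMIs, 590 to 671).

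The libraries of nuclei differed in depth. The WT library held 2999075 region counts over 3476 barcodes and the KO library 1854201 over 2164 barcodes, a ratio of 0.618, and the KO list had 26493 regions. Regions were called separately in each library, so the KO counts at the positions of the members are not part of the tables, and absence from the KO list is not a KO value of 0. Of the 2639 WT and 1594 KO nuclei that passed the filters, the doublet caller marked 7 (0.265%) and 2 (0.125%), too few to say that doublets were removed, and 2632 and 1592 were used. The libraries shared few barcodes, with 11 sequences in both. Bulk libraries held between 24254905 and 44315104 counts.

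A gene interval in the feature list spans the starts of its transcripts and not the gene body, and 61.0% of the intervals were 1 base long. So the members include regions inside genes. By the GENCODE M21 annotation of GRCm38, 265 members (40.0%) were intergenic, 199 (30.1%) lay in introns and 198 (29.9%) touched an exon. Of the 860 equally distant WT regions of at least 100 counts that did overlap a KO region, called shared distal regions below, 50.5% were intergenic, 19.4% intronic and 30.1% exonic. Of the members 130 (19.6%) lay within 1000 bp of a GENCODE transcript start that the feature list does not hold, against 198 (23.0%) of the shared distal regions.

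Some members therefore sat on annotated but unlisted gene starts. RefSeq's promoter windows for GRCm38.p6 placed 29 stretches of 250 bases before a start wholly inside 28 members. The 6 shown are those of named genes that were also the nearest gene of the member and whose window held no GENCODE exon, and they show what the sequence of such members was like. Each runs 5′ to 3′ on the strand of its gene, and capitals mark matches to the motifs searched.
Bcl2l11, chr2:128127325-128127574 (plus strand): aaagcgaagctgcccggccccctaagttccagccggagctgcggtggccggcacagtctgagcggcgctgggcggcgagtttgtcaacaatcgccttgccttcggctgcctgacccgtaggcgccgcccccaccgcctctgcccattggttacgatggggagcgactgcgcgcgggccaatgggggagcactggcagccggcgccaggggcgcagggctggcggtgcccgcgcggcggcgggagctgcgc
Srebf1, chr11:60210472-60210721 (minus strand): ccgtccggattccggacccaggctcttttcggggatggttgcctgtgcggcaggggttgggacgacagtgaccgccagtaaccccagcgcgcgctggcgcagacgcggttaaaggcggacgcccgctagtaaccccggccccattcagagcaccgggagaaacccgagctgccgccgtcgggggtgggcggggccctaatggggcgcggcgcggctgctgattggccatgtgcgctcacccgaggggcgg
Ppp1r10, chr17:35919022-35919271 (plus strand): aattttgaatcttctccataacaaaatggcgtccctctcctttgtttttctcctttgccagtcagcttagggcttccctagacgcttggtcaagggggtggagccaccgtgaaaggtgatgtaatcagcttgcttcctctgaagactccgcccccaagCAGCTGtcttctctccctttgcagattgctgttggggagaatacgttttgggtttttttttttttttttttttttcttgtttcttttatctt
Ankrd24, chr10:81633449-81633698 (plus strand): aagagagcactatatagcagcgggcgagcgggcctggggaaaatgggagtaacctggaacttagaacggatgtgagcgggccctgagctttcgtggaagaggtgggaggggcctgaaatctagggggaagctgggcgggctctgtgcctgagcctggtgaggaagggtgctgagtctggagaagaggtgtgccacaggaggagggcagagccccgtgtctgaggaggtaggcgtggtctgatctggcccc
Rtkn, chr6:83141856-83142105 (plus strand): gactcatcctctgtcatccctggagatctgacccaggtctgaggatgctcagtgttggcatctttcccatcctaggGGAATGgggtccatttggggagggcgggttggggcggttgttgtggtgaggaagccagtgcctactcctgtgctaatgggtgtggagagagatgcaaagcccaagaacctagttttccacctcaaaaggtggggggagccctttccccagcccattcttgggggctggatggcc
Prr5, chr15:84662956-84663205 (plus strand): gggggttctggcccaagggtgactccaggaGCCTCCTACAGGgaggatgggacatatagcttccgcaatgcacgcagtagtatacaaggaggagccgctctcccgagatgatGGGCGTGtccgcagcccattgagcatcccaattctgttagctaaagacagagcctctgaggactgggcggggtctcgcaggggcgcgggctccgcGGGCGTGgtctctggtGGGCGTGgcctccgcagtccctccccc
The Bcl2l11 and Srebf1 windows were rich in CG, with 30 CG pairs each and a G and C content of 73.2% and 70.8%, against a median of 52.4% over all 32851 RefSeq windows of the same length and 58.4% over the 29. Bcl2l11 encodes BIM, a protein that promotes cell death, and Srebf1 encodes a transcription factor of fatty acid synthesis. Ppp1r10 encodes a regulatory partner of protein phosphatase 1, and Prr5 a component of mTOR complex 2. Ankrd24 encodes a protein with ankyrin repeats. The windows of Bcl2l11, Srebf1 and Ankrd24 held no match to any of the 18 motifs searched on both strands.

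Of the motifs, an E-box (CAGCTG) was in 7 of the 29 windows (24.1%, against 13% of all RefSeq windows) and in the Ppp1r10 window of those shown. The TEAD sequence GGAATG was in 4 (13.8% against 12.6%), among them Rtkn. The AP-1 sequence TGANTCA was in 3 (10.3% against 6.75%) and the KLF sequence GGGCGTG in 3 (10.3% against 7.55%), among them Prr5 with 3 matches. A CTCF motif was in 3 (10.3% against 7.17%), among them Prr5. The ETS sequence CCGGAAG was in 2 (6.90% against 6.91%). The SOX sequence CCATTGT (3.02% of all windows), the CDX sequence TTTATNG (9.81%), an HNF4 motif (0.384%) and a CArG box (1.47%) were in 1 each. No window held the FOX sequence TGTTTAC, the GATA sequence AGATAAG, the NKX sequence TNAAGTG, the RUNX sequence TGTGGTT, or the MEF2, PU.1, NF-1 or glucocorticoid motifs. A match says only that these letters occur there.

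The members had 100 to 343 WT counts, with a median of 119 over a median of 60 barcodes, and 87880 counts in all. The shared distal regions had a median of 145.5 counts. Member width had a median of 1017 bp and shared distal region width one of 974 bp. The distance from a member to the nearest gene interval ran from 1008 to 285891 bp, with a median of 9758 bp. The 3 members nearest the count limit had 100 counts and the 3 regions just outside it had 99. The members nearest to a KO region lay 20 bp from it near Mnt, 35 bp near Dot1l and 58 bp near Wnt11, whereas the median gap was 14940.5 bp. The smallest overlap among the shared distal regions was 38 bases, so the line between the sets was thin there. Chromosome 11 held 77 members (11.6%) and 9.77% of the shared distal regions. Chromosome X held 2 members (0.302%) and 2.21% of the shared distal regions.

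How often a distal WT region was missing from the KO list fell with its WT count. It was 84.5% of 8921 regions with fewer than 25 counts, 59.2% of 654 regions with 100 to 124 counts, 25.1% of 179 regions with 200 to 299 counts and 3.03% of 66 regions with 300 or more (2 regions). Of all 1522 distal regions of at least 100 counts, 43.5% were missing. Within 1000 bp of gene intervals the share was 35.5% of 1441 regions with 100 to 124 counts. It was below the distal share from 25 to 299 counts, and above it under 25 counts (85.1%) and from 300 counts on (5.40%). Of the members, 387 lay in the range of 100 to 124 counts.

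**Figure D1:**
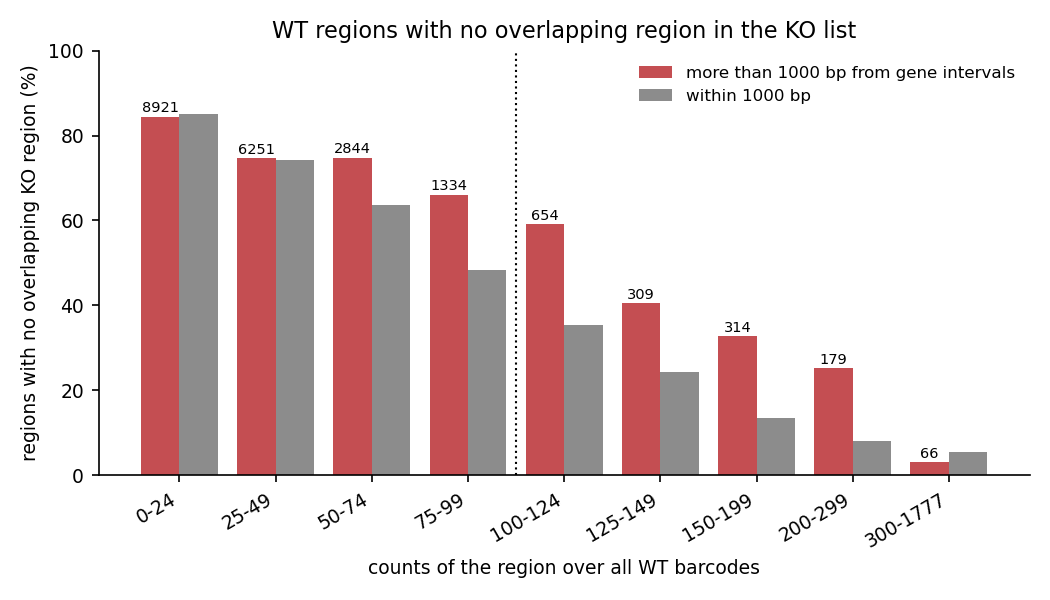
Share of WT regions with no overlapping KO region (vertical axis, percent) by the WT count of the region (horizontal axis); red bars are regions more than 1000 bp from gene intervals, with their number above, grey bars regions within 1000 bp, and the dotted line marks the limit of 100 counts. The red share falls from 84.5% below 25 counts to 3.03% from 300 counts on.

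The depth of the KO library was set beside this. At the ratio of the totals, 100 WT counts correspond to 61.8 KO counts, and 13391 of 15177 distal KO regions (88.2%) had fewer. The totals are over lists of different length. Over regions that overlap between the lists the ratio was 0.726, by which 100 WT counts correspond to 72.6 KO counts. Fewer than that were found in 92.0% of the distal KO regions. In the other direction, 1786 distal KO regions reached 61.8 counts and 450 of them (25.2%) overlapped no WT region. At the fixed limit of 100 counts, 53 of 587 distal KO regions (9.03%) overlapped no WT region. The part of depth in the absence of the members was not tested.

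The members with the most counts had them in every large class of nuclei. The highest, chr6:124745089-124746114, had 343 counts over 160 barcodes, lay 3714 bp from the interval of Grcc10 and touched an exon of Gm45234. Of its 280 counts in clustered nuclei (called classed counts, unnamed nuclei included), 80 were in smooth muscle-like, 41 in unnamed, 37 in epithelial-like, 37 in enteric neuron-like, 30 in mesothelial-like and 27 in enteric glia-like nuclei. The next, chr5:109556973-109557823, had 335 counts in an exon of Crlf2, which encodes a receptor for the cytokine TSLP. The others of the 10 highest had 258 to 298 counts and lay nearest to Gm14486, Lrrc74a, A330074K22Rik, Kdm6b (3 members), Hes7 and Ldha. Of these, a Kdm6b member (chr11:69418441-69419643) held 22 counts in fibroblast-like nuclei, 2.26 times the share of that class in all region counts.

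The 662 members had 617 different nearest genes. Of these, 578 genes had 1 member, 35 had 2, 2 had 3 and 2 had 4, and 24 runs of members less than 10 kb apart held 52 members (7.85%). The largest run was at Kdm6b, which encodes a demethylase that removes a repressive mark from histone H3. Its 4 members spanned chr11:69408327-69419643 with 191, 258, 269 and 268 counts, 986 in all. The first touched an exon and the second lay in an intron of Kdm6b, and the others lay between it and Dnah2. Bulk colon Kdm6b was 184, 231 and 154 CPM in KO and 109, 123 and 125 CPM in WT, a log2 fold change of 0.67 ± 0.24 (SE) that did not pass the test (edgeR adjusted p = 0.236). The other genes with the most members were Gm41307 (4), Sirt4 and Gm30042 (3 each), and Gm14486, Rara, Trim8, Gm14488, Impact and Ptma (2 each). Rara encodes a retinoic acid receptor, and Sirt4 a mitochondrial sirtuin. The 3 members assigned to Gm30042 lay in introns of Dagla, which encodes an enzyme that makes an endocannabinoid.

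Nuclei were grouped by their RNA and each cluster was named after the markers it held. WT had 908 smooth muscle-like, 515 enteric glia-like, 367 mesothelial-like, 358 epithelial-like, 133 enteric neuron-like, 126 fibroblast-like, 58 macrophage-like and 58 nuclei like interstitial cells of Cajal, 47 lymphatic endothelial-like and 24 endothelial-like nuclei, and 38 unnamed nuclei with a median of 12374.5 UMIs. Region counts at the starts of marker genes were checked against the names. Smooth muscle-like nuclei held 60.2% of 1013 counts at starts of Acta2, Actg2, Myh11 and other smooth muscle markers, against 29.0% of all region counts. Enteric glia-like nuclei held 20.7% of 111 counts at starts of their markers, against 12.1% of all. The share was not raised for the nuclei like interstitial cells of Cajal (1.15% of 174 counts against 1.83%) and for the lymphatic endothelial-like nuclei (0 of 88 counts). The macrophage-like name rests on 58 nuclei with 4 of 40 counts at a marker start, and the B lymphocyte markers scored close to it in that cluster (4.504 against 4.659), so values of that class are weakly supported.

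The counts of the members were spread over the classes much as those of other regions. Smooth muscle-like nuclei held 30.8% of them (exact binomial interval 30.3 to 31.3, with 2 counts taken as 1 fragment and counting error only), against 29.0% (28.6 to 29.3) in the shared distal regions and 29.0% over all regions. This was 1.82 percentage points above the shared distal regions. The member share was 14.2% in epithelial-like, 13.3% in enteric neuron-like, 12.3% in enteric glia-like and 11.0% in mesothelial-like nuclei, against 14.2%, 14.0%, 12.1% and 10.8% of all region counts. It was lower than in the shared distal regions for macrophage-like nuclei, at 2.03% (1.89 to 2.18) against 2.60% (2.48 to 2.73), and for the unnamed nuclei, at 7.95% against 9.69%. There was 1 WT library, so none of these differences was tested. KO had fewer region counts than WT in some of these classes and more in others. The ratio was 0.263 in epithelial-like, 0.397 in enteric glia-like, 0.425 in enteric neuron-like, 0.568 in smooth muscle-like, 0.624 in mesothelial-like, 1.01 in fibroblast-like and 1.75 in macrophage-like nuclei. The part of these ratios in the makeup of the members was not tested.

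**Figure D2:**
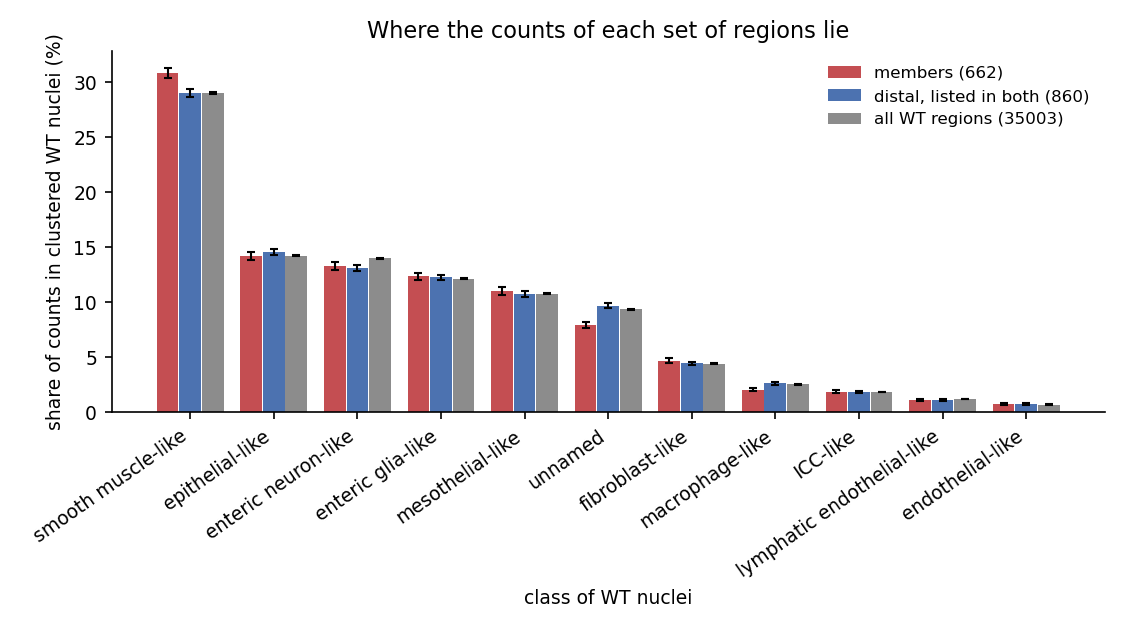
Share of counts in each class of WT nuclei (vertical axis, percent) for the 662 members, the 860 shared distal regions and all 35003 WT regions; error bars are exact binomial intervals with 2 counts taken as 1 fragment, which cover counting error only. Smooth muscle-like nuclei are at 30.8% for the members and 29.0% for the other sets. The members are below the shared distal regions in unnamed (7.95% against 9.69%) and macrophage-like nuclei (2.03% against 2.60%).

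Single members did stand out in a class. A member was counted as biased to a class where it had at least 20 counts there and the class share of its counts was at least 2 times that of all region counts. By this measure 115 members (17.4%) were biased to a named class and 95 shared distal regions (11.0%). The members had fewer counts each (median 119 against 145.5), so their ratios carry more counting error. The part of this in the 2 shares was not tested. Of the members, 44 were biased to epithelial-like, 24 to mesothelial-like, 23 to enteric glia-like, 11 to enteric neuron-like, 9 to smooth muscle-like, 4 to fibroblast-like and 1 to macrophage-like nuclei. Smooth muscle-like nuclei held 29.0% of all counts, so that a ratio of 2 there takes most of a member's counts. Of the 69 distal regions biased to epithelial-like nuclei, 63.8% were missing from the KO list, against 43.5% of all 1522 distal regions of at least 100 counts. The share missing was 52.2% of 46 for mesothelial-like, 50% of 46 for enteric glia-like and 39.3% of 28 for enteric neuron-like nuclei, and 9 of 11 regions biased to smooth muscle-like nuclei were missing. The class ratios of KO to WT region counts were 0.263, 0.624, 0.397, 0.425 and 0.568 in the same order. The part of class depth in these shares was not tested.

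**Figure D3:**
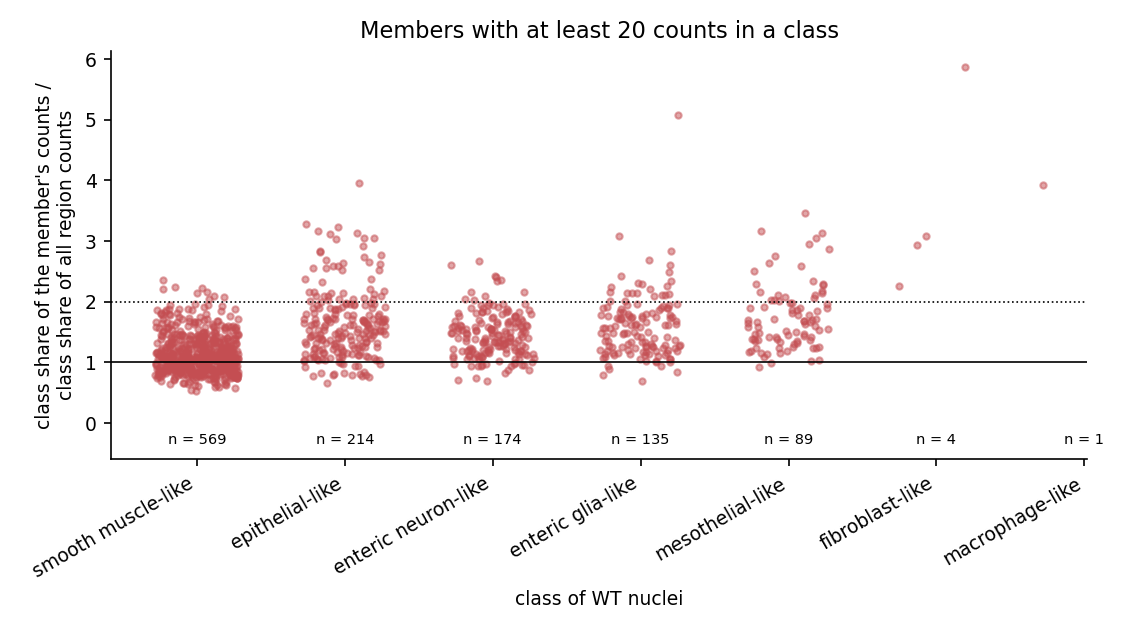
Each point is 1 member with at least 20 counts in the class on the horizontal axis; the vertical axis is the class share of its counts divided by the class share of all region counts, with a solid line at 1 and a dotted line at 2. The highest ratios are 5.87 for a fibroblast-like, 5.08 for an enteric glia-like and 3.96 for an epithelial-like case, and smooth muscle-like ratios reach 2.37.

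In smooth muscle-like nuclei the member with the highest ratio, chr18:4844966-4845977, had 72 of 105 classed counts there (68.6%, exact binomial interval 54.9 to 81.3) and none in glia-like or epithelial-like nuclei. It touched an exon of Gm10556, and its nearest coding gene was Svil, which encodes supervillin, a protein that binds actin and myosin. A pair of further members had Svil as their nearest coding gene, at chr18:5133822-5134725 with 57 of 112 and at chr18:5140969-5142052 with 41 of 102 classed counts in smooth muscle-like nuclei. Svil RNA in smooth muscle-like nuclei was 3527 CPM in WT and 3576 CPM in KO, and its bulk log2 difference (KO minus WT) was 0.17 ± 0.29 (SE) in colon (edgeR adjusted p = 0.845). Svil was singled out after its values were seen. The next, chr1:184041735-184042807, lay in an intron of Dusp10, which encodes a phosphatase that acts on MAP kinases, and had 58 of 89 classed counts there (65.2%, 50.1 to 79.5). Members named as the most biased to a class, here and below, were picked for their high ratio, and the intervals do not cover that choice.

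The most epithelial-biased member, chr1:88220077-88220990, had 85 of 151 classed counts in epithelial-like nuclei (56.3%, 43.4 to 66.7) and lay beside Ugt1a7c, of a family of enzymes that join glucuronic acid to drugs and bilirubin. Next came chr9:66606059-66606937 beside Usp3, a ubiquitin protease gene, with 36 of 77 counts (46.8%, 31.0 to 64.2). Epithelium is not part of the muscularis, and 358 WT and 137 KO nuclei carried its markers. The most glia-biased member, chr2:173419885-173420825, had 53 of 86 counts in enteric glia-like nuclei (61.6%, 44.4 to 75) and lay 25318 bp from Gm14642. Next was chr5:92263692-92264674, which touched an exon of Naaa, with 42 of 112 (37.5%).

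The members most biased to enteric neuron-like nuclei were chr13:45538683-45539730 in an exon of Gmpr, a guanosine monophosphate reductase gene, with 37 of 99 counts, and chr3:51700749-51702074 in an intron of Maml3, a coactivator of Notch signalling, with 36 of 99. For fibroblast-like nuclei they were chr8:93830106-93831084 in an intron of Gnao1, with 26 of 101 counts, and chr3:145652783-145654075 in an intron of Gm17501 whose nearest coding gene is Ccn1, with 20 of 148. Both had more counts in smooth muscle-like nuclei, 45 and 46. For mesothelial-like nuclei they were chr4:138271341-138273120 in an intron of Kif17, a kinesin gene, with 35 of 94 counts, and chr18:38517774-38518931 nearest to Spry4, an inhibitor of growth factor signalling, with 34 of 100. For macrophage-like nuclei it was chr11:102217508-102219369 in an exon of Hdac5, a histone deacetylase gene, with 20 of 203 classed counts, while smooth muscle-like nuclei held 62.

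The class in which a member was most open matched the class with the highest RNA of its nearest gene in some cases. Over the 5 largest named classes and genes with at least 50 UMIs, this held for 118 of 342 members (34.5%) and 132 of 451 shared distal regions (29.3%). The classes differ in size, so the share expected without any relation was not computed. Where the highest ratio was at least 2, it held for 27 of 55 members (49.1%) and 24 of 49 shared distal regions (49.0%). This measure was chosen after the data were seen and is a description.

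Of all 32285 genes in the feature list, 1.91% were the nearest gene of a member, and the gene lists, which hold few genes each, are given beside this. Of 20 contractile genes, 1 was (5%): Myh11, the smooth muscle myosin heavy chain, with chr16:14258443-14259477 in an intron 31885 bp from its start interval. That member had 52 of 103 classed counts in smooth muscle-like nuclei. Of 22 smooth muscle transcription genes in the feature list 3 were (13.6%), namely Tead3, Tead1 and Mef2d. The Tead3 member touched an exon and had 79 of 187 classed counts in smooth muscle-like nuclei, the intronic Tead1 member 47 of 95, and the intergenic Mef2d member 47 of 140. Of 18 matrix and integrin genes 3 were (16.7%): Col1a1, which encodes a collagen chain, and the integrin genes Itga5 and Itgb1. Of 23 growth factor genes 1 was (4.35%), Gli1, the effector of Hedgehog signalling. None of 19 calcium and channel genes and none of 18 contraction receptor genes was. The shared distal regions had Klf4 and Srf of the transcription genes, Kcnq5 of the channels, Sparc of the matrix genes, and Gli2 and Ptch1 of the growth factor genes. The 1.91% was over all listed genes whatever their RNA level, and the part of RNA level in the list shares was not tested.

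The Carmn locus on chromosome 18 held a pair of members. They lay at chr18:61682219-61683547 and chr18:61684570-61685682, 16681 and 19032 bp before the start of Carmn (61649625 to 61665537, minus strand), and Il17b, a cytokine gene of the interleukin 17 family, was their nearest gene. They had 115 and 125 WT counts. Smooth muscle-like nuclei held 57 of 94 classed counts in the first (60.6%) and 54 of 115 in the second (47.0%), and the second touched an exon of Il17b. The nearest KO regions lay 15380 and 17731 bp away. The WT region at the start of Carmn itself (148 counts) overlapped a KO region and was no member. The KO list held a region inside Carmn, at 61653079 to 61654364 with 152 counts, that overlapped no WT region.

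The rule for the members used no bulk value, and the tests below are on the bulk libraries, although the members were proposed with earlier results of these data known. Il17b measured 0.803, 1.29 and 2.19 CPM in KO colon and 0.220, 0.433 and 0.234 CPM in WT colon. In jejunum it measured 13.2, 5.82 and 14.6 CPM in KO and 1.28, 1.28 and 3.28 CPM in WT. The KO libraries were higher without overlap in both tissues, but the log2 fold changes of 2.25 ± 0.58 (SE, edgeR adjusted p = 0.124) and 2.53 ± 0.54 (edgeR adjusted p = 0.0901) did not pass the threshold of 0.05. They passed it with DESeq2, at adjusted p = 0.00763 and 0.000347. DESeq2 called more genes here, at 4.60% of all genes in colon and 3.85% in jejunum, where edgeR called 0.388% and 0.215%. In bulk tissue, a change in the number of cells of a type and a change in RNA per cell cannot be told apart.

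Of the 617 nearest genes, 476 had enough bulk counts to be tested. In colon 3 passed (edgeR adjusted p below 0.05), or 0.630%, where 0.388% of all 20886 genes tested passed. In jejunum 2 passed, or 0.420%, where 0.215% of all genes passed. The nearest genes of the shared distal regions gave 3 of 574 in colon and 5 of 574 in jejunum. With so few calls, the members' shares were not set apart from the background.

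Fth1, the heavy chain of the iron store ferritin, was higher in KO colon. It measured 3467, 3468 and 5116 CPM in KO and 1163, 1192 and 1232 CPM in WT, with no overlap, and the difference on the log2 scale was 1.75 ± 0.27 (SE, n = 3 against 3, edgeR adjusted p = 0.0301). Its jejunum values of 2538 to 4569 CPM in KO and 1141 to 1607 CPM in WT did not overlap either, at 1.37 ± 0.27 (edgeR adjusted p = 0.0740). Fth1 has near-identical processed pseudogenes, so its counts are uncertain. Its member, chr19:9978387-9979306, lay 1291 bp from its start and had 30 of 96 classed counts in smooth muscle-like nuclei.

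Lratd1, listed as Fam84a in GENCODE M21, was lower in KO colon. It measured 4.30, 2.13 and 2.22 CPM in KO and 23.8, 12.9 and 12.5 CPM in WT, and the difference on the log2 scale was -2.50 ± 0.41 (SE, edgeR adjusted p = 0.0320). Its member touched an exon of the gene at chr12:14149776-14150769, with 21 of 94 classed counts in smooth muscle-like nuclei. Spats2l, whose product is found in stress granules, measured 26.6, 28.2 and 42.1 CPM in KO colon and 62.2, 65.5 and 66.0 CPM in WT, a log2 difference of -1.0 ± 0.18 (SE) that passed the test (edgeR adjusted p = 0.0433). Its member, chr1:57852391-57853172, lay in its intron and had 27 of 91 classed counts in epithelial-like and 28 in smooth muscle-like nuclei. Neither gene's colon values overlapped between genotypes.

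In jejunum Nptx1 and Psrc1 passed. Nptx1, a neuronal pentraxin gene, measured 1.27, 4.32 and 7.72 CPM in KO jejunum and 50.8, 51.6 and 160 CPM in WT, a log2 difference of -4.29 ± 0.65 (SE, edgeR adjusted p = 0.0345). In colon it was at or under 2.26 CPM in all 6 libraries. Psrc1, which encodes a protein of the mitotic spindle, measured 2.17, 4.29 and 5.74 CPM in KO jejunum and 0.291, 0.693 and 0.847 CPM in WT, a log2 difference of 2.73 ± 0.45 (SE, edgeR adjusted p = 0.0419). The Nptx1 member, chr11:119523746-119525212, lay 22540 bp from its start interval with 35 of 86 classed counts in smooth muscle-like nuclei, and the Psrc1 member, chr3:108388679-108389832, lay 4819 bp away with 30 of 109. Jejunum had no region data, so these members were only seen in colon. The difference between the tissues passed for none of the 37 named genes with a value (smallest adjusted p = 0.859, edgeR).

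**Figure D4:**
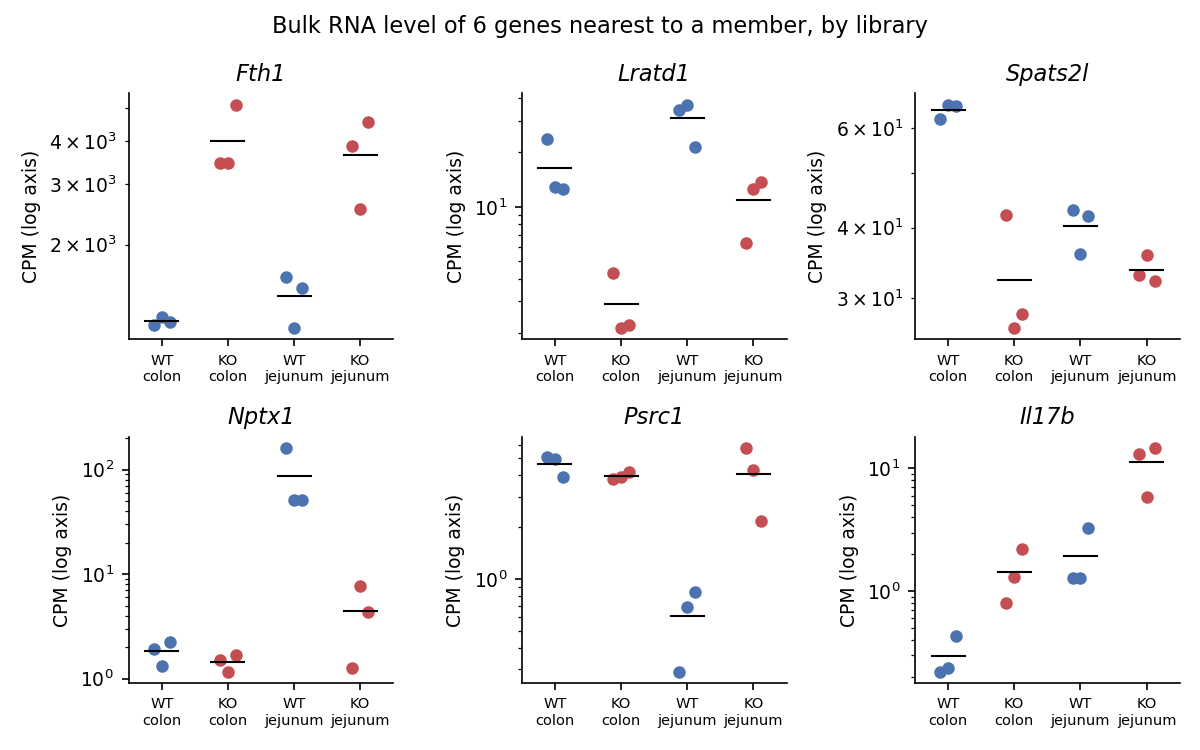
Bulk RNA level (vertical axis, CPM on a log axis) of the 5 genes past the test and of Il17b in each library, by tissue and genotype label; each point is 1 library and the line is the mean of 3. Fth1, Lratd1 and Spats2l separate the labels in colon and Nptx1 and Psrc1 in jejunum, and Il17b lies higher in KO in both.

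The calls depended on single libraries, named here by genotype, tissue and tag. Fth1 passed in 5 of 12 fits that left out 1 library, and not without KO colon t4 or t6, any WT colon library, or WT jejunum t1 or t6 (edgeR adjusted p up to 0.149). Lratd1 passed in 5, and not without KO colon t4 or t6, WT colon t1 or t6, or any WT jejunum library (up to 0.142). Spats2l passed in 2, those without KO colon m1 or KO jejunum m1 (others up to 0.186). Nptx1 passed in 4, those without KO colon t4 or t6 or KO jejunum m1 or t1 (others up to 0.150). Psrc1 passed in 1, without KO colon t4 (others up to 0.161), and did not pass with a replicate block (limma adjusted p = 0.0558). In a fit to the 6 libraries of 1 tissue alone none of the nearest genes passed. In these fits 90 had an unadjusted edgeR p below 0.05 in each tissue. In colon this was 19.3%, against 11.5% of all genes and 13.5% of the shared distal regions' nearest genes. In jejunum it was 19.4%, against 15.3% of all genes and 21.5% of the shared distal regions' nearest genes. DESeq2 called 36 in colon (7.56%) and 27 in jejunum (5.67%), where it called 4.60% and 3.85% of all genes. Of the nearest genes of the shared distal regions it called 6.27% in each tissue.

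At an unadjusted edgeR p below 0.05 there were 107 nearest genes in colon (22.5%, 81 higher and 26 lower in KO), where 14.5% of all genes reached it, and 79 in jejunum (16.6%, 53 higher and 26 lower), where 13.2% did. The median log2 fold change in colon was 0.17 over the members' nearest genes and 0.004 over all genes, and 63.0% against 50.3% were higher in KO. The nearest genes of the shared distal regions lay between, with 19.0% at that p, a median of 0.12 and 59.8% higher. In jejunum their share at that p did not lie between: 17.1% of the shared distal regions' nearest genes reached it, slightly more than the members' 16.6%. The jejunum medians were 0.06 for the members, 0.05 for the shared distal regions and 0.02 for all genes. The percent higher in KO jejunum was 55.3%, 53.7% and 51.5% in the same order, so by these measures the shared distal regions did lie between. Nearest genes of both kinds were more abundant than other genes, with median levels of 5.02 and 5.05 on the log2 CPM scale against 3.30, and the part of abundance in these shares was not tested.

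**Figure D5:**
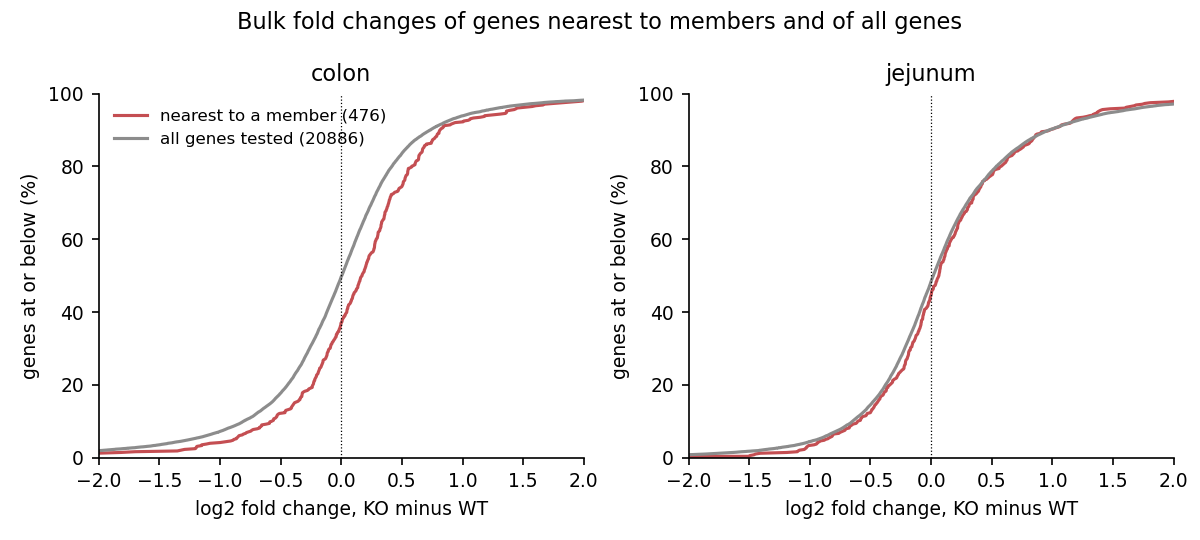
Cumulative share of genes (vertical axis, percent) by bulk log2 fold change, KO minus WT (horizontal axis, drawn from -2 to 2), for the 476 genes nearest to a member and all 20886 genes tested. In colon the curve of nearest genes lies to the right, with medians of 0.17 and 0.004, and in jejunum the curves nearly coincide.

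None of the 9 list genes nearest to a member passed in either tissue, and Il17b is given above. In colon Gli1 measured 57.7, 63.6 and 20.9 CPM in KO and 11.7, 15.5 and 10.8 CPM in WT, a log2 difference of 1.91 ± 0.46 (SE, edgeR adjusted p = 0.115), and in jejunum the difference was -0.01 (adjusted p = 0.996). Myh11 measured 5711 to 12303 CPM in KO colon and 13412 to 19702 CPM in WT colon, at -0.66 ± 0.31 (SE, edgeR adjusted p = 0.362), and was at 0.13 in jejunum (adjusted p = 0.899). Itga5 in jejunum measured 1794, 729 and 1198 CPM in KO and 184, 222 and 221 CPM in WT, without overlap, at 2.57 ± 0.54 (SE, edgeR adjusted p = 0.0867). In colon its libraries overlapped, at 0.81 ± 0.51 (adjusted p = 0.509, edgeR). Col1a1 was at 0.84 ± 0.77 in colon (edgeR adjusted p = 0.679) and 1.10 ± 0.78 in jejunum (adjusted p = 0.580), with overlap in both. Itgb1 was at -0.03 in colon (edgeR adjusted p = 0.977) and 0.82 in jejunum (adjusted p = 0.264). Mef2d was at 0.64 in colon (edgeR adjusted p = 0.249) and -0.14 in jejunum (adjusted p = 0.851). The colon and jejunum differences were -0.09 and -0.01 for Tead1 and -0.00 and -0.11 for Tead3.

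Bcl2l11, whose promoter window is printed above, measured 37.9, 30.7 and 16.1 CPM in KO colon and 11.1, 10.3 and 10.1 CPM in WT, at 1.43 ± 0.29 (SE, edgeR adjusted p = 0.0688), and was singled out after its values were seen.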

How the data were processed

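Bulk RNA-seq of 12 libraries (3 for each tissue and genotype label) and 2 libraries of colon nuclei with RNA and open chromatin were analysed. The authors deposited raw counts per gene for the bulk libraries and raw counts per gene and region for each barcode of nuclei. Per the submitters' processing notes, the tools were STAR 2.0.4b, featureCounts 1.4.5, Subread, edgeR and Cell Ranger, with the builds GRCm38 and mm10, and the file headers name cellranger-arc 2.0.0. Which tool did which step is not stated there. The members and the gene lists were chosen with earlier results of these data known. No column of per-sample values was left unassigned.

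All gene values of the nuclei were even and were halved to unique molecular identifiers (UMIs), which is an inference. Region values were 11.6% odd in WT and 11.5% odd in KO, so that exact binomial intervals (95%) took 2 counts as 1 fragment. Nuclei with at least 500 UMIs, at least 300 genes and at most 5% mitochondrial counts were kept and clustered with scanpy 1.11.5 (2000 variable genes, 30 components, 15 neighbours, resolution 1) in Python 3.11.15. Clusters were named from marker lists. The naming rule was changed after its first result was seen and before member shares were computed, and the first rule was kept as an alternative. The ratio limit of 2, the RNA comparison, the runs of 10 kb, the depth-scaled KO comparison, the counts at unadjusted p and the promoter windows were also chosen after the data were seen. The planned centre sequences and motif shares of the regions were not run, since no genome sequence was used here. Of the 32285 gene IDs in the feature list, 32145 were found in GENCODE M21.

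Bulk counts were filtered with filterByExpr, scaled by TMM and tested with edgeR 4.0.16 (quasi-likelihood, all 4 groups in 1 fit, R 4.3.3), with Benjamini-Hochberg adjustment over all genes and a threshold of 0.05. On simulated counts the fit was checked for recovery of known changes. Alternatives were DESeq2 1.42.0, limma 3.58.1 with a replicate block, other filters and scaling, and leaving out each library. Regions named were the 10 members with the most counts, the 2 with the highest ratio in each class among those with at least 20 counts there, and those at the limits. Genes named were their nearest genes, the 10 genes nearest to the most members, nearest genes past the threshold, and list genes nearest to a member. No more than 1 library of nuclei per genotype was available for comparison, so no test between genotypes was made on nuclei.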

Additional observations from a re-analysis of the deposited data

How the results depend on the processing

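The number of members was 3671 with a minimum of 50 counts, 47 with 200 and 241 when regions had to lie more than 1000 bp from every gene body, and stayed within 1.5 times with the other limits (469 and 641). The share of member counts in smooth muscle-like nuclei was 27.1% at lower and 29.3% at higher clustering resolution, 30.1% with doublets kept, 28.9% with a minimum of 200 counts and 26.2% under the first naming rule. It stayed 1.63 to 1.85 percentage points above that of all regions under the resolutions, doublet and naming alternatives, which regroup the nuclei over the same members. With a minimum of 200 counts the share of 28.9% was not above the 29.0% of all regions. The nearest genes called in colon were 0 with the libraries of that tissue alone and 0 with a minimum of 200 counts. With DESeq2 they were 36 (7.56%, against 4.60% of all genes). Those called in jejunum were 1 without a filter on low counts and 0 with that tissue alone. With DESeq2 they were 27 (5.67%, against 3.85% of all genes). They were 1 with the nearest gene taken by gene body and 0 with a minimum of 200 counts. Leaving out 1 library gave 0 to 7 calls in colon and 0 to 6 in jejunum. Fewer samples or fewer members enter the fits of 1 tissue, of 11 libraries and of 200 counts. The cause of the changes in the number of calls was not tested for any alternative. The replicate block (tag within genotype, across tissues) gave 3 calls in colon and 2 in jejunum. After the mean of each group was subtracted, libraries sharing a genotype and tag correlated between -0.136 and 0.0863 across genes. With few libraries in each group, these values cannot show whether a tag marks 1 animal. The main fit did not pair libraries by tag. None of the 5 called genes changed direction under any alternative run. The planned motif and centre sequence analysis was not run. Each member had 100 to 343 counts, the lower limit being set by the rule, so intervals on class shares of single members are wide.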
